A study of Danio rerio with 16 samples.

Results

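The genes described here encode parts and a regulator of smooth muscle and non-muscle myosin in the adult zebrafish ventricle. They are the heavy chains MYH11 (ENSDARG00000009782) and MYH10 (ENSDARG00000000103), the regulatory light chain MYL9 (ENSDARG00000008030) and the light chain kinase MYLK (ENSDARG00000034801). They are 4 of the 32520 genes in the deposited table, and all 4 were among the 14986 genes that passed the filter on low counts. The members were chosen by gene ID, with their measured levels across the groups already known, so their values are given below as a description and without a p-value. Symbols follow a table that pairs each gene ID with a name, mostly in the human form, so paralogs can share a symbol and the ID is given with it.

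Myosin II is the motor that pulls on actin filaments in smooth muscle and in non-muscle cells. It is built from paired heavy chains, each carrying an essential and a regulatory light chain. Calcium and calmodulin activate the light chain kinase, which phosphorylates the regulatory light chain and switches the motor on. Myosin phosphatase reverses this step, and further kinases act by inhibiting the phosphatase. In the heart, smooth muscle myosin is best known from the walls of coronary vessels and from the bulbus arteriosus, the elastic outflow chamber of fish. Non-muscle myosin is found in most cell types and works in migration, adhesion and division.

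The study compared wild-type AB (Oregon) zebrafish with fish carrying the bns502 allele of ankrd1a, which encodes a muscle ankyrin repeat protein. In each genotype, one set of adults had the ventricular apex touched for 25 seconds with a probe cooled in liquid nitrogen (cryoinjury), and a sham set was touched with a probe at room temperature. Ventricles were taken after 7 days of recovery. Each of the 16 libraries was made from poly(A) RNA of 3 pooled ventricles, and every group holds 4 libraries. The labels do not say whether the mutant line has the AB background, so the allele and other differences between the lines cannot be told apart. The age, the sex and any batch of the fish are not given in the sources used here.

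The estimated counts per library summed to between 5623721 and 12254719. Levels below are in CPM, counts brought to a common library size, after scaling by the trimmed mean of M-values (TMM). Cardiomyocyte markers summed to between 35015 and 79129 CPM in the 16 libraries, so the labelled tissue carried its defining transcripts in each. Mitochondrially encoded genes took 18.6% to 22.9% of the counts in the sham libraries and 7.91% to 14.3% in the injured ones. Among the IDs named ANKRD1, ENSDARG00000075263 read 0.318 to 4.44 CPM in sham wild type and 0.162 to 0.781 CPM in sham mutants. The same ID read 8.19 to 41.9 CPM in injured wild type and 11.2 to 30.7 CPM in injured mutants. The second ID, ENSDARG00000076192, had at most 5 counts in any library. The name table does not say which ID is ankrd1a, and a transcript level does not check a genotype label for an edited allele.

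The members fell into 3 patterns over the 4 groups. MYH11 and MYLK were higher in the injured than in the sham libraries of both genotypes. MYL9 was higher in the mutant than in the wild-type libraries in both sham and injured ventricles. MYH10 had overlapping libraries in every comparison. These are levels in whole ventricles, where fewer cells of a type and less RNA per cell cannot be told apart.

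MYH11 encodes the smooth muscle myosin heavy chain, a defining protein of contractile smooth muscle. In sham wild type its replicates 1 to 4 read 36.1, 37.3, 48.4 and 41.3 CPM, and in sham mutants 33.8, 42.9, 42.7 and 45.1 CPM. In injured wild type they read 74.4, 62.3, 57.0 and 115 CPM, and in injured mutants 56.7, 60.4, 97.9 and 78.8 CPM. Every injured library lay above every sham library of its genotype, and the genotypes overlapped in both conditions. The group means were 40.8 ± 5.53, 77.2 ± 26.2, 41.1 ± 4.99 and 73.4 ± 18.9 CPM (SD, n = 4) in sham wild type, injured wild type, sham mutants and injured mutants. The log2 fold change with injury was 0.92 (SE 0.21) in wild type, a 1.90-fold difference, and 0.84 (SE 0.21) in mutants, a 1.79-fold difference. It was 0.66 in wild type without replicate 4 of the injured wild type, the library with the highest MYH11. Between genotypes the log2 fold change was 0.01 (SE 0.22) in sham and -0.07 (SE 0.21) in injured ventricles. In order of level, the means of injured wild type and injured mutants stood next to each other within their spread, as did those of the sham groups, with the sham and injured pairs apart.

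MYLK encodes the calmodulin-dependent kinase that phosphorylates the regulatory light chain in smooth muscle. In sham wild type it read 16.8, 16.7, 16.7 and 15.7 CPM in replicates 1 to 4, and in sham mutants 16.4, 17.2, 16.0 and 14.8 CPM. In injured wild type it read 34.4, 33.8, 26.7 and 50.2 CPM, and in injured mutants 24.7, 27.2, 37.5 and 28.4 CPM. The sham libraries lay within a narrow band and every injured library stood above it. The means were 16.4 ± 0.500 CPM in sham wild type, 36.3 ± 9.95 in injured wild type, 16.1 ± 1.02 in sham mutants and 29.4 ± 5.59 in injured mutants (SD, n = 4). The log2 fold change with injury was 1.14 (SE 0.18) in wild type and 0.87 (SE 0.18) in mutants, that is 2.21-fold and 1.83-fold. Between genotypes it was -0.03 (SE 0.18) in sham and -0.30 (SE 0.17) in injured ventricles, with overlapping libraries in both.

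MYH10 encodes the heavy chain of non-muscle myosin IIB. It read 262, 282, 344 and 325 CPM in sham wild type and 310, 236, 302 and 351 CPM in injured wild type. In the mutants it read 341, 410, 333 and 411 CPM in sham and 458, 305, 367 and 380 CPM in injured ventricles. All 4 groups overlapped. The means were 303 ± 37.7 and 299.7 ± 47.5 CPM in sham and injured wild type and 374 ± 42.6 and 378 ± 62.6 CPM in sham and injured mutants (SD, n = 4). Injured against sham, MYH10 had a log2 fold change of -0.02 (SE 0.15) in wild type and 0.02 (SE 0.15) in mutants. Between genotypes it was 0.30 (SE 0.15) in sham and 0.33 (SE 0.15) in injured ventricles. In each condition the mutant mean lay above every wild-type library, while single libraries overlapped.

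MYL9 encodes a regulatory light chain used by smooth muscle and non-muscle myosin. In sham wild type it read 593, 658, 844 and 675 CPM, and in injured wild type 582, 501, 611 and 636 CPM. In sham mutants it read 1610, 1752, 2506 and 1505 CPM, and in injured mutants 2718, 2434, 1556 and 1881 CPM. Every mutant library lay above every wild-type library, while sham and injured libraries overlapped in each genotype. The means were 692 ± 107, 583 ± 58.5, 1843 ± 453 and 2147 ± 526 CPM (SD, n = 4) in sham wild type, injured wild type, sham mutants and injured mutants. The log2 fold change of mutants against wild type was 1.41 (SE 0.19) in sham ventricles, 2.66-fold, and 1.88 (SE 0.19) in injured ventricles, 3.68-fold. With injury it was -0.25 (SE 0.19) in wild type and 0.22 (SE 0.19) in mutants. Scaling by total counts alone turned the wild-type value to 0.21, beside a median of 0.46 over all genes under that scaling.

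**Figure D1:**
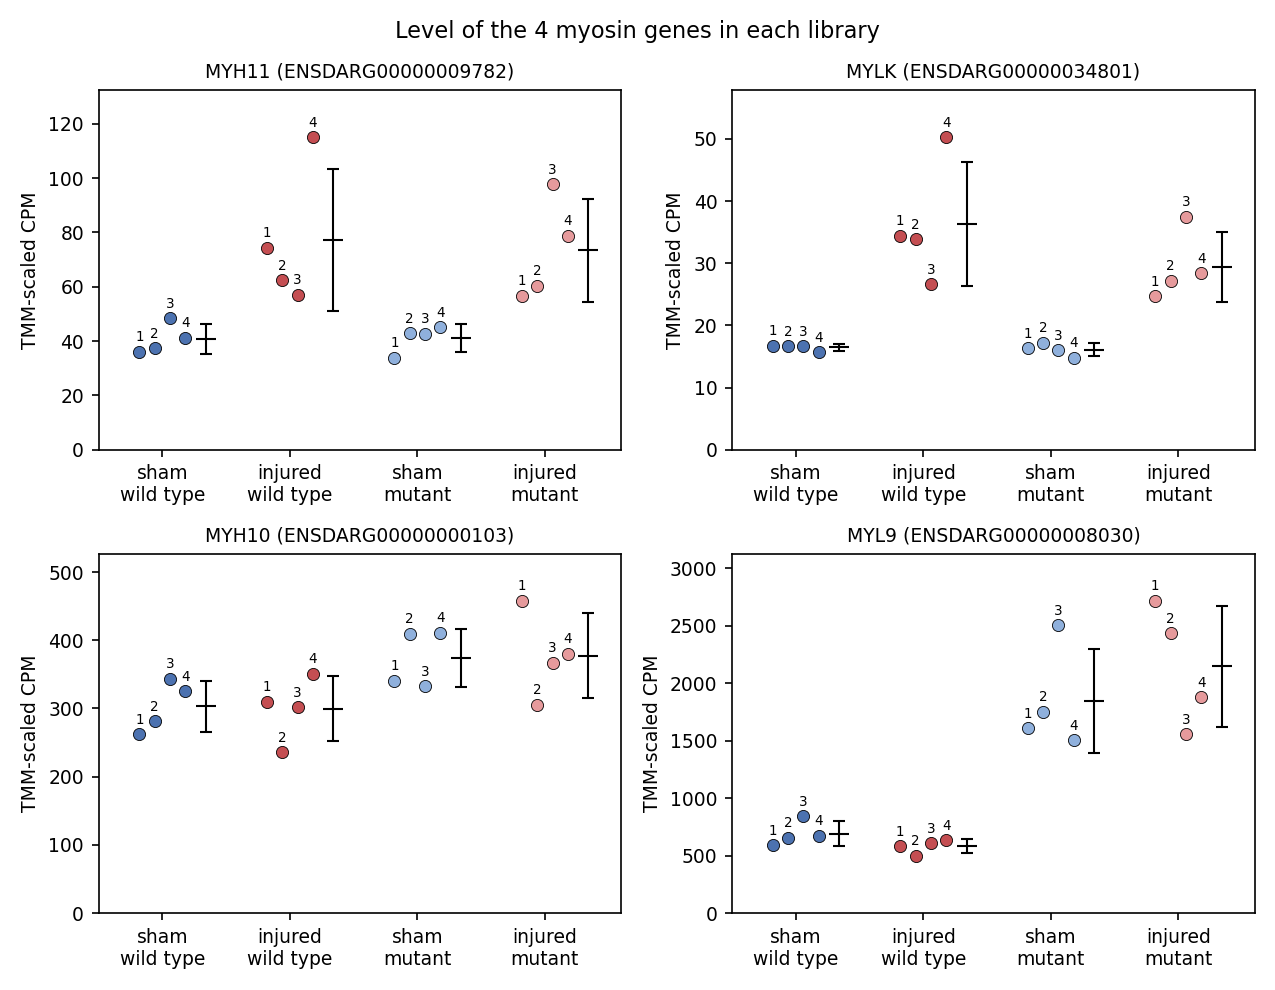
Level of MYL9, MYH11, MYH10 and MYLK in each library, in CPM on an axis from 0 for each gene. Points are libraries and bars mark the mean and SD of 4 libraries in each group. MYH11 and MYLK stand higher in the injured groups, MYL9 in the mutant groups, and the MYH10 groups overlap.

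The replicates did not order the members alike. Replicate 4 of the injured wild type was the highest of its group for MYH11, MYLK, MYH10 and MYL9, and it had the lowest mitochondrial share, 7.91%. In the injured mutants, replicate 1 was the highest for MYL9 and MYH10 and the lowest for MYH11 and MYLK. Replicate 3 of that group was the highest for MYH11 and MYLK and the lowest for MYL9. Cardiomyocyte markers summed to 62474.6 CPM in its replicate 1 and to 37712.5 CPM in its replicate 3. In the sham mutants these sums ran from 59792.5 to 79129.1 CPM, so the injured and sham mutants overlapped. The part of these library differences in the results was not tested.

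The ratio of MYH11 to MYH10 within a library sets the smooth muscle heavy chain against a non-muscle one. On the CPM scale it was 0.134 ± 0.00605 in sham wild type and 0.255 ± 0.0576 in injured wild type (SD, n = 4). In the mutants it was 0.111 ± 0.0127 in sham and 0.199 ± 0.0585 in injured ventricles. The wild-type groups did not overlap, at 0.127 to 0.141 against 0.189 to 0.328. The mutant groups did overlap, at 0.0992 to 0.128 against 0.124 to 0.266. The ratio carries the unequal lengths of the transcripts and is read between groups only. MYH10 changed little with injury, so the ratio mostly restates the change of MYH11. Another non-muscle heavy chain, MYH9 (ENSDARG00000001014), had log2 fold changes with injury of 1.07 in wild type and 0.98 in mutants. No ratio to it was formed, so the values hold for MYH10 alone.

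Across all 14986 genes, edgeR's quasi-likelihood test called 25.3% in the injury comparison in wild type and 28.9% in mutants, at an adjusted p below 0.05. Called higher were 13.9% and 16.5%, and called lower 11.5% and 12.4%. The libraries did not overlap and stood higher after injury for 14.0% of genes in wild type and 15.8% in mutants. Of the members, MYH11 and MYLK met both criteria in each genotype. Between genotypes, 5.81% of genes were called in sham and 2.56% in injured ventricles, and 6.66% and 3.67% had every mutant library above every wild-type one. MYL9 met both criteria in each condition. For the difference between the injury responses of the genotypes (the interaction), 0% were called, with 1155 genes at an unadjusted p below 0.05 and 42 called by DESeq2. The interaction values of the members were 0.47 (SE 0.26) for MYL9, -0.09 (SE 0.30) for MYH11, 0.03 (SE 0.22) for MYH10 and -0.27 (SE 0.25) for MYLK. Nothing is read from the members' counts, since the same comparisons were known when they were chosen. The comparisons also share groups, each sham or injured group entering both an injury and a genotype comparison.

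The other genes of the pathway were taken from lists by role, with the members removed, and 47 of their 59 gene IDs were tested. With injury, 14 were called higher and 8 lower in wild type, and 18 higher and 4 lower in mutants. The median log2 fold change over these genes was 0.15 in wild type and 0.21 in mutants, beside 0.01 and -0.01 over all genes tested. Between genotypes, 1 was called higher and 2 lower in sham ventricles, and 1 higher and 0 lower in injured ones. An unadjusted edgeR p below 0.05 was found for 7 of the 47 in sham and 12 in injured ventricles. The latter held 8 of 16 thin filament genes and 2 of 4 light chains. Over all genes tested, such a p was found for 19.9% in sham and 16.0% in injured ventricles. DESeq2 called 3 of the 47 in each condition, beside 672 of the 14986 genes tested in injured ventricles. In the interaction, edgeR and DESeq2 each called 0 of the 47, and 3 had an unadjusted edgeR p below 0.05. Scaling by total counts alone, with its raised median, gave 24 higher and 2 lower in wild type and 22 higher and 1 lower in mutants. It ended the calls of myh14 and PPP1R14C given below in both genotypes, that of ROCK2 with injury in wild type and that of mylk2 in mutants. It gave 1 higher and 3 lower between genotypes in sham and 1 higher and 1 lower in injured ventricles.

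Both IDs named MYH9, which encodes the heavy chain of non-muscle myosin IIA, rose with injury in each genotype. The first, ENSDARG00000001014, had means of 193 ± 38.6 and 406 ± 147 CPM in sham and injured wild type, and 202 ± 37.4 and 398 ± 84.6 CPM in the mutants. Its log2 fold change was 1.07 (SE 0.22, edgeR adjusted p = 0.00197) in wild type and 0.98 (SE 0.22, edgeR adjusted p = 0.00348) in mutants. In wild type it was 0.78 without replicate 4 of the injured group, whose level was 626 CPM against 321 to 352 in the others. The second, ENSDARG00000063295, was at 7.91 ± 1.65 CPM in sham and 41.8 ± 10.1 CPM in injured wild type, and at 12.0 ± 1.88 and 48.8 ± 4.71 CPM in the mutants. Its log2 fold change was 2.39 (SE 0.20, edgeR adjusted p = 8.11e-07) in wild type and 2.02 (SE 0.19, edgeR adjusted p = 1.93e-06) in mutants. In each genotype every injured library of both IDs was above every sham library.

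The heavy chain of non-muscle myosin IIC, myh14 (ENSDARG00000073732), fell with injury in wild type by 0.72 as a log2 fold change (edgeR adjusted p = 0.00761). In mutants it fell by 0.49 (edgeR adjusted p = 0.0498), a call that 12 of 16 refits, each omitting a library, did not keep (adjusted p up to 0.156). A second ID named MYH11, ENSDARG00000100972, did not pass the filter on low counts. Of the 3 listed heavy chains tested, edgeR and DESeq2 called 0 between genotypes in either condition, and 1 had an unadjusted edgeR p below 0.05 in sham ventricles and 0 in injured ones.

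Among the light chains, the essential chain myl6 (ENSDARG00000008494) rose with injury in both genotypes. Its means were 25.4 ± 6.57 and 44.2 ± 9.14 CPM in sham and injured wild type and 26.0 ± 4.93 and 64.8 ± 10.1 CPM in the mutants. Its log2 fold changes were 0.80 (edgeR adjusted p = 0.00629) in wild type and 1.32 (edgeR adjusted p = 0.000108) in mutants. The regulatory chain myl12.1 (ENSDARG00000099766) had a log2 fold change of 0.55 in mutants (edgeR adjusted p = 0.0247), lost in 5 refits that each omitted a library. In wild type that chain had 0.19 (edgeR adjusted p = 0.470).

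The second ID named MYL9, ENSDARG00000038123, was not called between genotypes. Its means were 310.5 ± 65.5 CPM in sham wild type, 326 ± 108 in injured wild type, 290.3 ± 30.0 in sham mutants and 377 ± 135 in injured mutants. The log2 fold change of mutants against wild type was -0.10 (SE 0.24, edgeR adjusted p = 0.879) in sham and 0.21 (SE 0.24, edgeR adjusted p = 0.721) in injured ventricles. For MYL12A (ENSDARG00000025326), another regulatory chain, it was 0.33 (edgeR adjusted p = 0.258) and 0.25 (edgeR adjusted p = 0.469). Reads shared between such close paralogs are split by estimation in the authors' counting, so their separate levels are less certain than the depth alone gives.

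Of the 11 tested kinases that act on the light chain or its phosphatase, 2 were called higher and 3 lower with injury in wild type, and 2 higher and 2 lower in mutants. Death-associated protein kinase DAPK3 (ENSDARG00000074447) had log2 fold changes of 0.77 (edgeR adjusted p = 0.0104) in wild type and 1.41 (edgeR adjusted p = 9.62e-05) in mutants. The other kinase called higher in both was the second ID named MYLK, ENSDARG00000004753. It was outside the naming rule because of its low level, was named after its values were seen, and had at most 31 counts in any library. Its mean was 0.365 CPM in sham and 2.01 CPM in injured wild type, and 0.213 and 2.35 CPM in the mutants. The log2 fold changes were 2.46 (SE 0.67, edgeR adjusted p = 0.0114) and 3.22 (SE 0.67, edgeR adjusted p = 0.00174).

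Other members of the kinase family were lower after injury. The gene mylk2 (ENSDARG00000031698), known in mammals as the skeletal muscle light chain kinase, fell in wild type by a log2 fold change of -0.97 (edgeR adjusted p = 0.000215) and in mutants by -0.65 (edgeR adjusted p = 0.00447). The family member MYLK4 (ENSDARG00000055412) fell by 2.06 (edgeR adjusted p = 0.000995) and by 1.57 (edgeR adjusted p = 0.00581). Its mean was 262 ± 35.4 CPM in sham and 62.9 ± 29.4 CPM in injured wild type. Cardiomyocyte markers, 11 IDs, summed to 59084 ± 2207 CPM in sham and 40208 ± 5175 CPM in injured wild type, and stood at 69286 ± 8396 and 48383 ± 11535 CPM in mutants. Of the 10 markers tested, 0 were called higher and 5 lower with injury in wild type, and 1 higher and 4 lower in mutants. Their part in these kinase values was not tested. The kinase ROCK2 (ENSDARG00000017500), which inhibits the phosphatase, fell by 0.62 with injury in wild type (edgeR adjusted p = 0.0153), a call not kept in 1 of the refits that omitted a library (adjusted p = 0.0538), and in mutants its value was -0.45 (edgeR adjusted p = 0.0627). This ID was lower in mutants than in wild type by 0.76 on the log2 scale in sham ventricles (log2 fold change -0.76, edgeR adjusted p = 0.0157), and in injured ones the value was -0.60 (edgeR adjusted p = 0.0868). A second ID named ROCK2, ENSDARG00000004877, was outside the naming rule and was named after its values were seen. Its means were 54.5 ± 8.34 and 52.6 ± 9.05 CPM in sham and injured wild type. In sham and injured mutants they were higher, at 70.7 ± 14.2 and 75.6 ± 26.0 CPM, without a call between genotypes.

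Of the 7 tested genes of myosin phosphatase and its inhibitors, 1 was called higher and 3 lower with injury in wild type, and 0 higher and 1 lower in mutants. The inhibitor PPP1R14C (ENSDARG00000077341) fell by 0.67 in wild type (edgeR adjusted p = 0.0113) and by 0.53 in mutants (edgeR adjusted p = 0.0335). The mutant call did not hold in 6 refits that each omitted a library. The catalytic subunits ppp1cbl (ENSDARG00000102012) and PPP1CB (ENSDARG00000044153) fell in wild type by 0.45 (edgeR adjusted p = 0.0443) and 0.34 (edgeR adjusted p = 0.0463). The calls did not hold in 10 and 12 of the 16 such refits, and both signs turned under total counts alone. The targeting subunit PPP1R12A (ENSDARG00000010784) was not called with injury or between genotypes.

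The list of thin filament genes of smooth muscle holds actin and the proteins that coat it, with the intermediate filament gene DES, and some of its members, such as tropomyosins, are also used in heart muscle. Of 16 tested, 8 were called higher and 1 lower with injury in wild type, and 12 higher and 0 lower in mutants. Their median log2 fold change was 0.71 in wild type and 0.89 in mutants. Tropomyosin TPM4 (ENSDARG00000019128) had 2.49 (edgeR adjusted p = 0.000225) and 2.94 (edgeR adjusted p = 3.18e-05). The calponin-family actin binder TAGLN (ENSDARG00000045408), also called SM22, had 1.61 (edgeR adjusted p = 0.00387) and 2.16 (edgeR adjusted p = 0.000392). Its wild-type value was 2.21 without replicate 4 of the sham group. A second ID named TAGLN, ENSDARG00000033466, was outside the naming rule and was named after its values were seen. It changed less, with means of 105 ± 23.0 and 119 ± 11.3 CPM in sham and injured wild type. In sham and injured mutants its means were 85.5 ± 17.5 and 139.8 ± 17.4 CPM. Calponin CNN1 (ENSDARG00000102398) had 1.42 in wild type (edgeR adjusted p = 0.0512) and 3.23 in mutants (edgeR adjusted p = 0.000314), where it was 2.61 without replicate 1 of the injured group. Leiomodin LMOD1 (ENSDARG00000077261), which nucleates actin in smooth muscle, was 2.46-fold higher in wild type (edgeR adjusted p = 0.0151) and 4.46-fold higher in mutants (edgeR adjusted p = 0.000241). The wild-type call of LMOD1 did not hold in 2 refits that each omitted a library, with adjusted p up to 0.0574. The interaction was called for 0 of the 16 by edgeR and by DESeq2, and 2 had an unadjusted edgeR p below 0.05.

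**Figure D2:**
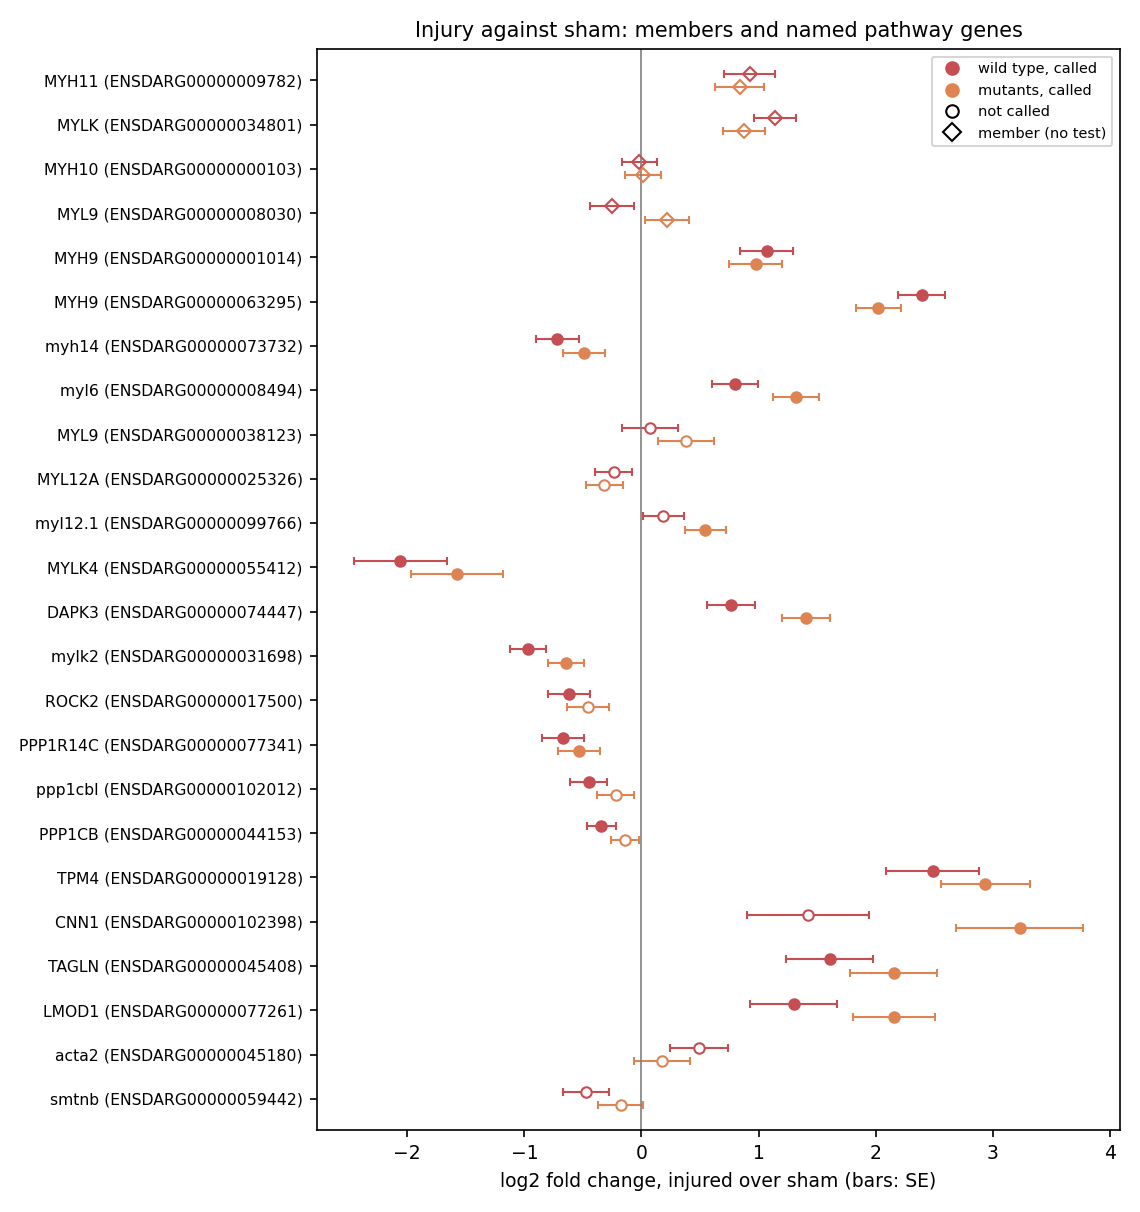
Log2 fold change of injured against sham for the members and for the named pathway genes, in wild type and in mutants, with bars of 1 SE. Filled pathway points passed the edgeR test at an adjusted p below 0.05, and members carry no test. MYH11, MYLK and both MYH9 IDs lie to the right of 0 in each genotype, MYL9 and MYH10 lie near it, and mylk2 and MYLK4 lie to the left.

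The smooth muscle actin gene acta2 (ENSDARG00000045180) was the gene of the pathway lists that edgeR called higher in mutants, in both conditions. In injured ventricles DESeq2 called 2 of the 16 thin filament genes between genotypes, beside 672 of the 14986 genes tested. The acta2 level was 53.7, 79.9, 68.1 and 66.7 CPM in sham wild type and 128, 64.1, 68.2 and 116 CPM in injured wild type. In sham mutants it read 188, 304.6, 278 and 195 CPM, and in injured mutants 316, 280.0, 320.6 and 172 CPM. As for MYL9, every mutant library lay above every wild-type library of the same condition. Mutants against wild type, acta2 differed by 1.84 on the log2 scale (SE 0.25, edgeR adjusted p = 0.000552) in sham and 1.53 (SE 0.25, edgeR adjusted p = 0.00278) in injured ventricles. With injury it was 0.49 (edgeR adjusted p = 0.159) in wild type and 0.18 (edgeR adjusted p = 0.624) in mutants. The smoothelin gene smtnb (ENSDARG00000059442) was lower in sham mutants, with a log2 fold change of -0.69 (edgeR adjusted p = 0.0430, lost in 5 refits that each omitted a library). Serum response factor and its partners, which drive transcription of smooth muscle genes, had 0 of 6 genes called by edgeR or DESeq2 with injury or between genotypes. Over all genes edgeR called 25.3% with injury in wild type and 28.9% in mutants. Between genotypes it called 5.81% in sham and 2.56% in injured ventricles, so 0 of 6 there says little about these factors. An unadjusted edgeR p below 0.05 was found for 1 of the 6 with injury in mutants and for 0 in the other injury and genotype comparisons. The listed partner myocardin (myocd) matched no gene ID by name, so these counts do not cover it.

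**Figure D3:**
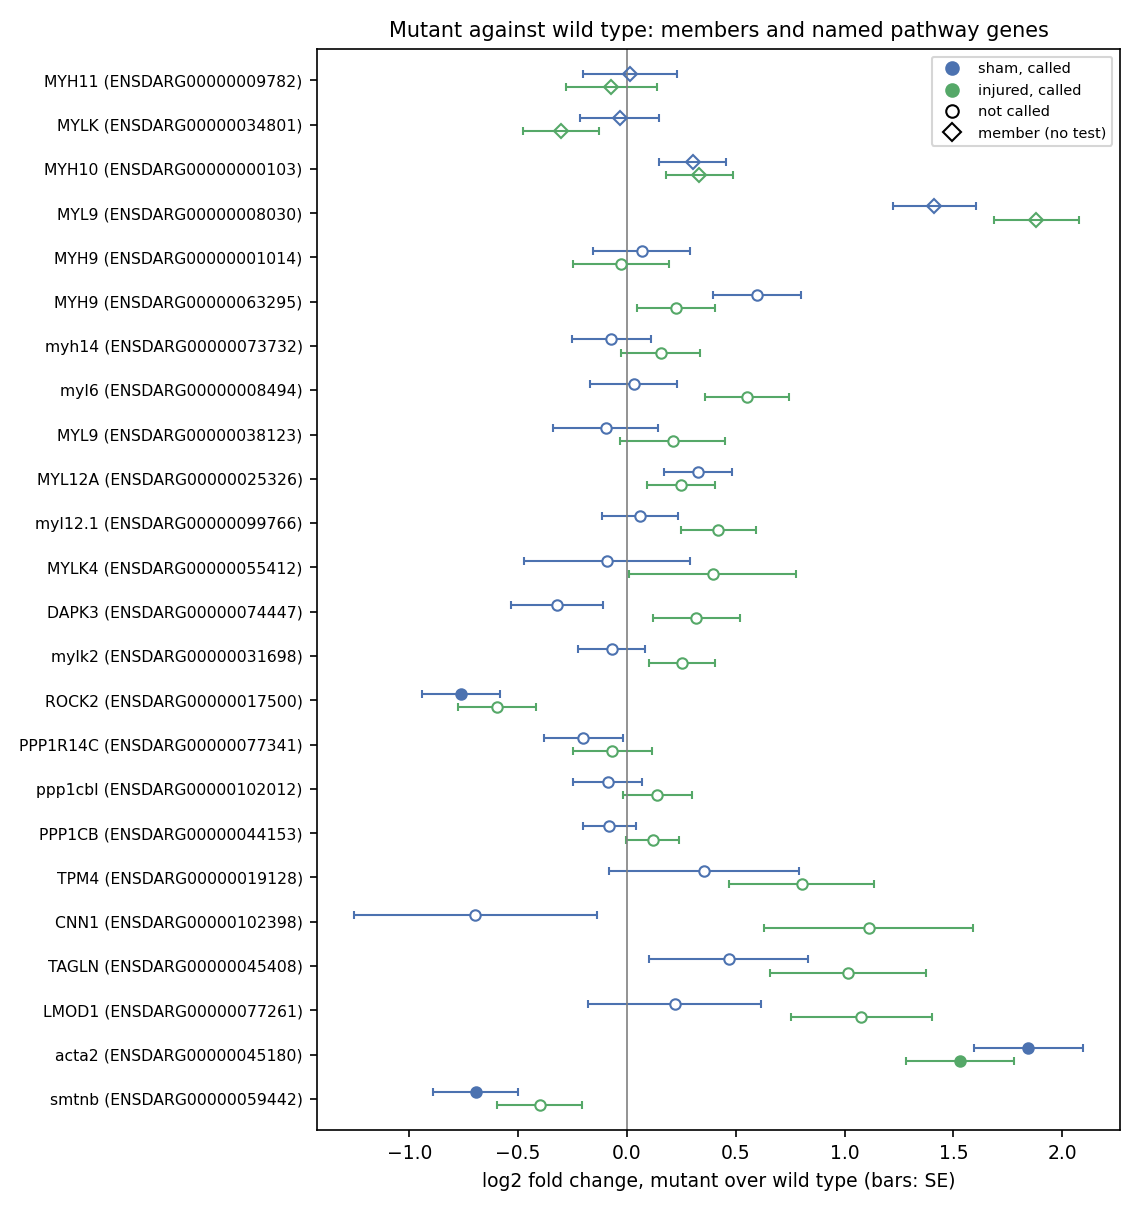
Log2 fold change of mutants against wild type for the members and for the named pathway genes, in sham and in injured ventricles, with bars of 1 SE. Filled pathway points passed the edgeR test at an adjusted p below 0.05, and members carry no test. MYL9 and acta2 lie above 1 in both conditions, while the second MYL9 ID lies near 0.

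The cell types that could carry these genes were followed by their markers. Mural cell markers, which mark pericytes and vascular smooth muscle, summed over 8 IDs to 461 ± 33.0 CPM in sham wild type and 391 ± 66.7 in injured wild type. In sham and injured mutants they summed to 279.8 ± 41.0 and 308 ± 43.0 CPM. In sham ventricles the sums were 226 to 323 CPM in mutants and 427 to 504 CPM in wild type. In injured ventricles they overlapped, at 265 to 361 CPM in mutants and 299.0 to 457 CPM in wild type. Of the 8, 4 were called higher and 1 lower with injury in each genotype, 0 were called between genotypes in sham, and 1 was called lower in injured mutants. The platelet-derived growth factor receptor PDGFRB had log2 fold changes with injury of 1.12 (edgeR adjusted p = 0.00242) in wild type and 0.85 (edgeR adjusted p = 0.0129) in mutants. The potassium channel subunit ABCC9 held a large part of the sum, with means of 315 and 154 CPM in sham and injured wild type and of 170.0 and 104 CPM in the mutants. ABCC9 fell by 1.03 with injury in wild type (edgeR adjusted p = 0.0152). The median log2 fold change of the 8 markers with injury was 0.59 in wild type, where the mean sum fell, and 0.47 in mutants. Between genotypes in sham ventricles that median was -0.76. With injury in wild type the sum thus went with ABCC9 and against the median of the list. With injury in mutants the mean sum rose with the median, while the mean of ABCC9 fell. Between genotypes in sham ventricles the sum, ABCC9 and the median were all lower in mutants. A sum so weighted to ABCC9 is a poor measure of mural cells. No mural marker was at 0 in all libraries of a group.

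Bulbus arteriosus markers, 4 IDs, summed to 88.6 ± 16.7 CPM in sham and 115 ± 21.0 CPM in injured wild type, and to 77.1 ± 12.5 and 98.5 ± 29.6 CPM in the mutants. The groups overlapped in each comparison. Of the 4, 1 was called higher with injury in wild type and 2 in mutants, 0 were called lower, and 0 were called between genotypes. The elastin gene elnb of this list rose with injury by log2 fold changes of 2.76 (edgeR adjusted p = 0.000152) in wild type and 2.06 (edgeR adjusted p = 0.000891) in mutants.

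Other markers moved with injury beside MYH11 and MYLK. Fibroblast markers, 12 IDs, summed to 3035 ± 456 and 11705 ± 478 CPM in sham and injured wild type and to 3005 ± 259 and 10118 ± 2030 CPM in the mutants. Epicardial markers, 5 IDs, stood at 189 ± 56.7 and 408 ± 53.8 CPM in wild type and at 129 ± 18.2 and 318 ± 77.1 CPM in the mutants. Of these 5, edgeR called 4 higher with injury in wild type and 2 in mutants. Leukocyte markers, 9 IDs, had mean sums of 79.6 and 380.1 CPM in sham and injured wild type and of 86.9 and 477 CPM in the mutants. Markers of dividing cells, 6 IDs, had mean sums of 20.0 and 90.5 CPM in wild type and of 22.8 and 105 CPM in the mutants. For these lists every injured sum lay above every sham sum of the same genotype. The endothelial sums lay between 768 and 1072 CPM in all libraries. Between genotypes in sham ventricles, skeletal muscle markers, 17 IDs, summed to 2785 to 3842 CPM in mutants and 4571 to 6256 CPM in wild type. Erythrocyte markers, 5 IDs, summed there to 514 to 1152 CPM in mutants and 1269 to 2586 CPM in wild type. In sham ventricles edgeR called 0 of 8 tested skeletal muscle markers and 0 of 4 erythrocyte markers between genotypes. The skeletal muscle sum did not follow most of its tested markers. With injury in wild type its mean went from 5023 to 3317 CPM, while 4 of the 8 were called higher and 1 lower. In injured ventricles, 3 of 8 tested skeletal muscle markers, 2 of 4 erythrocyte markers and 2 of 5 epicardial markers were called lower in mutants. The part of these cell types in the levels of MYH11, MYLK, MYL9 or acta2 was not tested.

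Profiles were compared over the 16 libraries as log2 CPM centred on each gene's mean. The measure of likeness was the root mean square difference. Genes without a symbol or named only as clones were left out, which left 7238 genes of at least 10 CPM on average. MYH11 and MYLK were each nearer to the other than to any of these genes, at 0.191. For MYLK the margin was small, with PTPRK at 0.192. MYL9 was far from both, at 1.01 and 1.09, and MYH10 was 0.52 from MYH11, 0.60 from MYLK and 0.71 from MYL9. The genes likest to MYH11 were actr3 (0.22), PTK7 (0.23), MYH9 at ENSDARG00000001014 (0.24), PTPRK (0.25) and tgfb1b (0.25). Those likest to MYLK were PTPRK (0.19), foxc1b (0.21), GALNT1 (0.23), tgfb1b (0.23) and LRP1 (0.23), so PTPRK, a receptor tyrosine phosphatase, and tgfb1b, a transforming growth factor beta, stood in both sets. Those likest to MYH10 were FAM53B (0.16), chd4b, RBM26, KIF1B and CLIP1 (0.17 each).

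The genes likest to MYL9 were PXMP4 (0.34), SMYD1 (0.38), bcam (0.39), acta2 (0.41) and wwp2 (0.44). PXMP4 encodes a peroxisomal membrane protein, SMYD1 a muscle methyltransferase, bcam a cell adhesion molecule and wwp2 a ubiquitin ligase. Their log2 fold changes of mutants against wild type in sham and injured ventricles were 1.08 and 1.40 for PXMP4, 1.52 and 1.64 for SMYD1, 0.99 and 1.26 for bcam, and 0.90 and 0.96 for wwp2. These genes were picked for their likeness to MYL9, so the values are a description. When likeness was measured by Pearson's r of the deviations from the group means, 0 of the 5 genes stayed the same for each of the 4 members. These sets thus hold for the first measure, which counts differences between the groups as well as those among replicates.

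**Figure D4:**
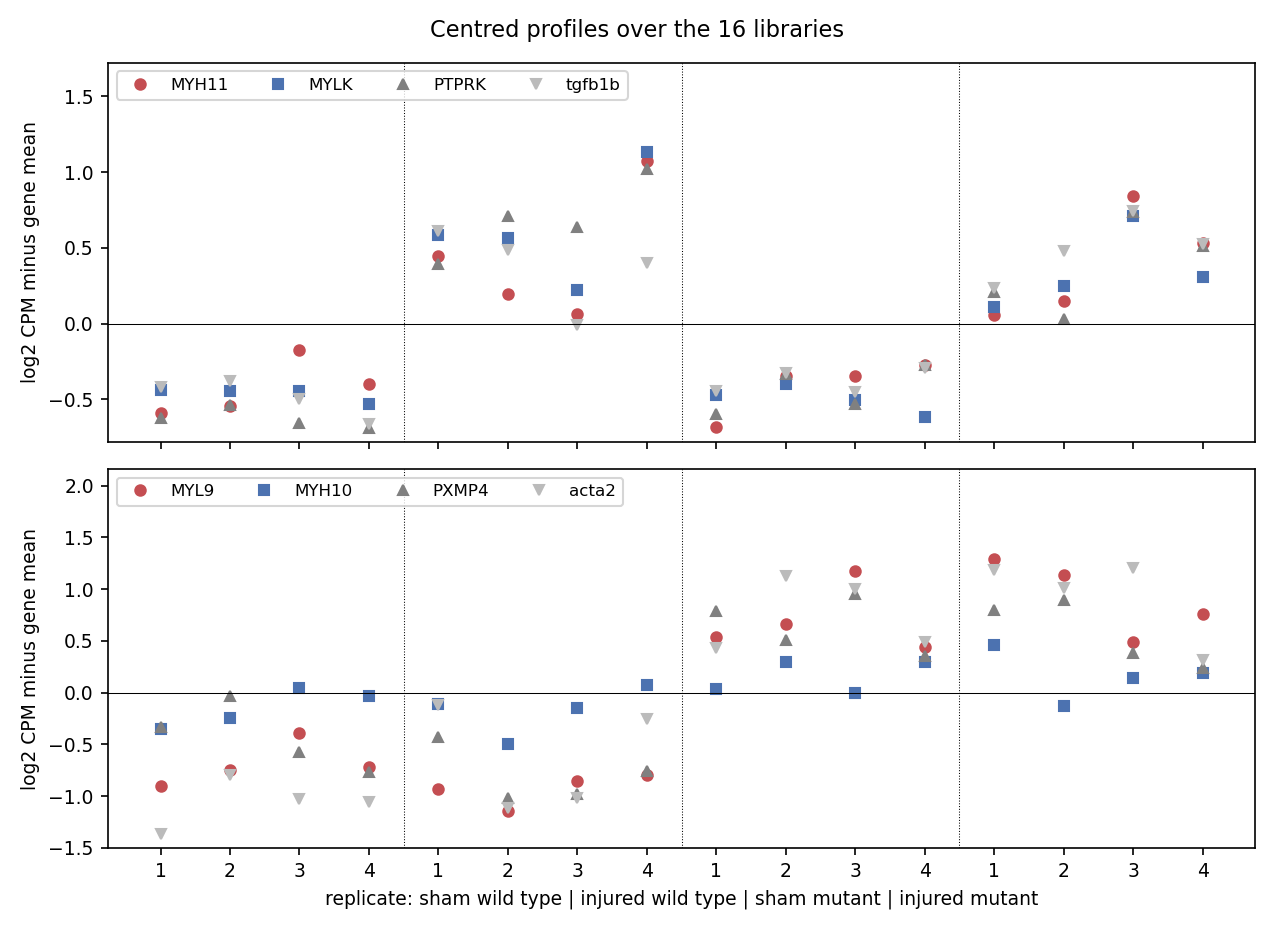
Log2 CPM of the members and of a few of the genes likest to them, centred on each gene's mean, for the 16 libraries ordered by group. In the upper panel MYH11, MYLK, PTPRK and tgfb1b lie higher in both injured groups. In the lower panel MYL9, PXMP4 and acta2 lie higher in both mutant groups, while MYH10 varies little.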

How the data were processed

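Poly(A) RNA from pooled ventricles was sequenced in 16 libraries. The values used are expected counts per gene as deposited by the authors in one table. The submitters' processing notes name fastp 0.23.4, STAR 2.7.0 and 2.7.10 and RSEM 1.3.3, without their roles. The genome build, annotation and use of strand are not given in the sources used here. Expected counts were rounded to whole numbers, since 3.00% to 5.02% of the values in a library were not whole. RSEM-type estimates split reads between similar genes, which touches paralogs. All columns were mapped to samples by name, leaving 0 unused.

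edgeR 4.0.16 (R 4.3.3) with its filter by expression and TMM factors between 0.815 and 1.26 was fitted to 4 group means over all 16 libraries. Its quasi-likelihood test was adjusted by the Benjamini-Hochberg method over 14986 genes and called at 0.05. Alternatives were DESeq2 1.42.0, RLE factors, other filters, only the compared groups, a replicate block, each library left out and total counts alone. The code was tested on simulated counts. The labels call the libraries separate pools but do not say how the fish were raised, so p-values measure the spread between these libraries. No library was a copy of another of its group by a chi-square test of their counts over 24 pairs. Pairs across groups were not compared.

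The members and gene lists were chosen with earlier results of these data known. Of the 66 listed pathway names, 47 matched a gene ID, as did 65 of 79 marker names. Every tested heavy and light chain was named, from each other pathway list up to 4 called genes with the largest change with injury and at least 5 CPM in a group, and any listed gene called between genotypes. PPP1R12A and the markers PDGFRB, ABCC9 and elnb were named outside this rule. Log2 CPM used a prior count of 2. No sequences were used here, and 1 gene list of the pathway is not reported here.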

Additional observations from a re-analysis of the deposited data

Results flagged for a closer look

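In groups of 4 libraries, the gap of the highest or lowest library to its neighbour was compared with the range of the group, by Dixon's rule at its 95% critical value. Of 140 groups tested, 14 passed, and chance alone passes about 1 in 20. Of the members, only MYLK had such a value, 15.7 CPM in replicate 4 of the sham wild type, below 16.7 to 16.8 CPM in the others. That replicate stood high in 2 other genes of the pathway, with MYH9 (ENSDARG00000001014) at 250.5 CPM against 167 to 179 and myl6 at 35.2 CPM against 21.4 to 23.5. Replicate 4 of the injured wild type had MYH9 (ENSDARG00000001014) at 626 CPM against 321 to 352. Replicate 3 of that group had mylk2 at 299 CPM against 244 to 249, PPP1CB at 208 CPM against 178 to 182, and a sum of 62.9 CPM over markers of dividing cells against 95.7 to 102. Its replicate 1 had ROCK2 (ENSDARG00000017500) at 198 CPM against 274 to 287.

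In the mutants, replicate 4 of the injured group had MYH9 (ENSDARG00000063295) at 55.9 CPM against 46.2 to 46.6, and replicate 3 had LMOD1 at 19.1 CPM against 8.17 to 9.65. In sham mutants, replicate 4 had mylk2 at 425 CPM against 499 to 510.4 and a sum of 58.6 CPM over bulbus arteriosus markers against 81.5 to 86.1, and replicate 3 had PPP1R14C at 428 CPM against 369 to 376. In sham wild type, replicate 2 had a sum of 6256 CPM over skeletal muscle markers against 4571 to 4692.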

How the results depend on the processing

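Scaling by total counts alone, chosen after seeing the data, moved the median log2 fold change of all genes with injury to 0.46 in wild type and 0.35 in mutants. With it the values in wild type were 0.21 for MYL9, 1.38 for MYH11, 0.44 for MYH10 and 1.61 for MYLK, and in mutants 0.57, 1.23, 0.37 and 1.25. It also turned ppp1cbl to 0.0047 (edgeR adjusted p = 0.983) and PPP1CB to 0.11 (edgeR adjusted p = 0.406) in wild type, and gave 5251 genes called higher and 329 lower in wild type and 4593 and 466 in mutants, in place of 2076 and 1722 and of 2479 and 1857. Between genotypes in injured ventricles it gave 123 and 333 in place of 168 and 216. Genes called between genotypes in injured ventricles, 384, became 672 with DESeq2 and 198 with only the compared groups. The pathway genes called there, 1, became 3 with DESeq2 and 2 under total counts alone. The interaction gave 42 called genes with DESeq2 and 10 with no filter on low counts. RLE factors, the other filters and only the compared groups each ended the myh14 call in mutants (edgeR adjusted p from 0.0503 to 0.0889). Only the compared groups also ended that of PPP1R14C in mutants (edgeR adjusted p = 0.0741). In wild type, ppp1cbl and PPP1CB lost their calls with no filter (edgeR adjusted p = 0.0818 and 0.11) and with only the compared groups (edgeR adjusted p = 0.0732 and 0.0771). Leaving out 1 library gave 559 (without replicate 2 of sham wild type) to 952 called genes between genotypes in sham ventricles and 208 (without replicate 2 of injured wild type) to 534 in injured ones. It gave 1 to 3 pathway genes in injured ventricles and 0 to 6 genes in the interaction. The cause of these shifts was not tested. Same-numbered replicates deviated together with r between -0.15 and 0.21. These values cannot show whether libraries of the same number were handled together, and the labels name no batch. The mutant replicates numbered 4 held the most counts, 12254719 in sham and 11219932 in injured ventricles. With the replicate number as a block, 3545, 4049, 745, 314 and 0 genes were called in the injury comparisons in wild type and mutants, the genotype comparisons in sham and injured ventricles, and the interaction. The block gave MYL9 1.40 in sham and 1.89 in injured ventricles, and MYH11 0.91 and MYLK 1.13 with injury in wild type, and it ended the calls of ppp1cbl (edgeR adjusted p = 0.0501) and PPP1CB (edgeR adjusted p = 0.0694) there and of smtnb in sham ventricles (edgeR adjusted p = 0.0797). Low counts limit the second MYLK and MYH11 IDs.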

Other observations

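The gene likest to MYL9, PXMP4, was looked up in the RefSeq annotation of the GRCz12tu assembly after its values were seen. There pxmp4 lies on the same chromosome as myl9b, with 6 coding genes between them, while myl9a lies on another. The name table does not say which MYL9 ID is myl9b. Of the 6 genes between, 3 were matched by name to a measured gene. Their log2 fold changes of mutants against wild type in sham and injured ventricles were -0.06 (SE 0.26) and -0.53 (SE 0.21) for quo, 0.31 (SE 0.16) and 0.61 (SE 0.16) for TGM2, and 3.58 (SE 1.43) and -0.76 (SE 1.34) for tgm5l. The annotation has quob and tgm2b, matched here to quo and TGM2 without the final letter. The name table does not say whether these IDs are those genes or paralogs that lie elsewhere. In that annotation none of myl9a, myl9b, myh10, myh11a, myh11b, mylka, mylkb and acta2 lies on the chromosome of ankrd1a. Of these genes, only acta2 lies on the chromosome of ankrd1b. The genes myh10, myh9a, myh11a and mylkb also lie on the chromosome of myl9b. There are 4 coding genes between myh10 and myh9a and 22 between myh10 and myh11a. The name table does not say which MYH9, MYH11 or MYLK ID each of these names stands for.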
